A study of Mus musculus with 6 samples.

Results

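B cells and plasma cells were examined in orthotopic pancreatic tumours of mice, where they made up 296 of 74546 cells in 4 single-cell RNA libraries. A barcode counted as a cell with at least 500 UMIs (unique molecular identifiers, each standing for 1 captured transcript), more than 200 genes and under 10% mitochondrial UMIs. A cell was a member if it held at least 3 UMIs of Cd79a, Cd79b and Ms4a1 together, or if Jchain made up at least 1% of its UMIs. Members also had no UMI of Cd3d, Cd3e or Cd3g, C1qa, C1qb and C1qc under 0.2% and S100a8 and S100a9 under 1% of UMIs, and at most 1 UMI of Krt8 and Krt18. The 52 members with Jchain at or above 1% are called plasma cells and the other 244 B cells. The members were thus chosen by the measured levels of these genes, so their levels are given as a description and no test rests on them.

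The tumours grew in C57BL/6 mice, 6 to 8 weeks old, from KPC cells, a line from a genetically engineered mouse model of pancreatic cancer that uses Pdx1-Cre. The injected cells bore a lentiviral construct for MLKL (OE-MLKL) or the vector alone (OE-Vector), the protein that carries out necroptosis, and tumours were taken 4 weeks after injection. Each library came from 1 tumour, and 1 OE-Vector library and 3 OE-MLKL libraries had a count matrix; OE-Vector 2 and 3 were not analysed here. Between 1 and 3 libraries an exact permutation test cannot give a p below 0.25, so no share could reach significance. Only the injected cancer cells carry the construct, and host B cells and plasma cells do not. The labels name the samples as pancreatic cancer cells, but 34356 of the 74546 cells held a UMI of Ptprc, the pan-leukocyte gene.

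Mlkl counts did not separate the groups in keratin-positive cells, which take in the injected cancer cells and may take in host epithelium. Per the methods the libraries read the 3' end of transcripts. Whether they count the transcript of the construct was not tested. In cells with at least 5 keratin UMIs and no Ptprc, Mlkl stood at 15.8 CPM (UMIs of a gene per 1000000 UMIs summed over the cells of a kind) in OE-Vector 1 and at 8.79, 12.8 and 19.7 in the libraries labelled OE-MLKL. The OE-Vector value lies within the OE-MLKL range, so the groups below are groups by label. B cells held 1, 0, 0 and 1 Mlkl UMIs in OE-Vector 1 and in OE-MLKL 1, 2 and 3, and plasma cells held none.

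B cells recognise antigen through a membrane immunoglobulin, signal through the Cd79a and Cd79b chains, and present peptides to T cells on MHC class II. After activation they can switch the heavy chain from IgM and IgD to IgG, IgE or IgA, and some become plasma cells, which shut down the B cell programme under Prdm1 and turn their secretory pathway over to antibody. In tumours B lineage cells range from naive cells to germinal centre-like cells and antibody-secreting cells. The J chain joins the units of polymeric IgA and pentameric IgM.

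Of 409 barcodes that met the gate for B cell genes or Jchain, 23 also held Cd3 transcripts, 28 were over the C1q limit, 21 over the S100a8 and S100a9 limit and 56 over the keratin limit, with some counted more than once. OE-Vector 1 held 135 members and OE-MLKL 1, 2 and 3 held 57, 56 and 48. At the edge of the gate, 36 B cells held exactly 3 UMIs of the B cell genes and 40 cells just outside held 2. The 36 B cells were 5, 16, 11 and 4 in OE-Vector 1 and OE-MLKL 1, 2 and 3, where the median B cell held 11, 4, 4 and 8 UMIs of these genes. These 40 cells were 5, 19, 12 and 4 in OE-Vector 1 and OE-MLKL 1, 2 and 3. Among plasma cells the lowest Jchain share was 1.11%, and among B cells the highest was 0.971%. No member was a member in 2 libraries under the same barcode, and 4 members shared a barcode with a cell of another matrix.

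The data were shallow for B cells and deeper for plasma cells. The median B cell held 1986 UMIs in OE-Vector 1 against 982.5, 905 and 1776 in OE-MLKL 1, 2 and 3. The median plasma cell held 10193, 5771, 6251.5 and 7633 UMIs. Summed over B cells, 3 counts correspond to 7.33 CPM in OE-Vector 1 and to 39.6, 56.9 and 29.9 in the OE-MLKL libraries, and a gene at 0 may be present up to that level. For plasma cells 3 counts correspond to 17.5, 34.5, 27.3 and 51.8 CPM. Intervals and such limits cover counting error only.

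The label fitted the markers that the rule did not use. Pax5, Cd22, Ebf1, Bank1 and Fcmr, B cell genes, all had UMIs in the B cells of each library, and Pax5 was at 0 in 2604 T cells of the same libraries. Those T cells were chosen to hold no UMI of Cd79a, Cd79b or Ms4a1 and Jchain under 1%. The absence of Pax5 in them was thus in part set by their gate. The 12 T cell genes summed to between 0.0034% and 0.030% of B cell UMIs, with the 3 Cd3 genes at 0 by the rule. In OE-MLKL 1 and 2 they made up 0.0251% and 0.0304%, above the 0.0110% and 0.0116% of barcodes of 100 UMIs or fewer, which hold free RNA. Il7r, a gene of this list, had 20 UMIs in the B cells of the OE-MLKL libraries together and 0 in those of OE-Vector 1. The 10 macrophage genes summed to 0.145%, 0.146%, 0.192% and 0.266% of B cell UMIs, against 0.825%, 0.688%, 0.651% and 1.05% in these barcodes of free RNA. Other lists stood above free RNA. The 8 NK cell genes reached 0.0190% of B cell UMIs in OE-MLKL 2 against 0.00691%, with Ncr1 and Klre1 at 0, and were below free RNA in the other libraries. The 8 plasmacytoid dendritic cell genes summed to 0.188%, 0.125%, 0.112% and 0.217% of B cell UMIs against 0.0597%, 0.0288%, 0.0283% and 0.0440%. Ly6d, also known from B cells, led this list with 1103, 752, 683 and 1227 CPM, and Siglech, a defining marker, had 1 UMI in all. The 10 dendritic cell genes summed to 0.0203%, 0.0119%, 0.00569% and 0.0249% against 0.00998%, 0.00325%, 0.00481% and 0.00828%. Ccr7, a homing receptor also known from lymphocytes, had 80 UMIs in B cells, Clec10a 11, Fscn1 9, Flt3 8, Batf3 6, and Itgax and Zbtb46 3 each, and Xcr1, Clec9a and Cd209a were at 0. The 6 endothelial genes summed to 0.0130%, 0.00923%, 0.00569% and 0.0229% against 0.00967%, 0.00361%, 0.00558% and 0.00468%. Pecam1, also known from leukocytes, led this list with 78 UMIs, and Kdr and Plvap were at 0. The part of such cells in the results was not tested. In plasma cells the macrophage genes summed to 0.328%, 0.0460%, 0.0618% and 0.117%, below free RNA, and the plasmacytoid dendritic cell genes to 0.148%, 0.0506%, 0.0727% and 0.0966%, above it.

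The OE-Vector tumour held a larger share of B cells than each tumour labelled OE-MLKL. B cells made up 0.787% of cells in OE-Vector 1 (121 of 15382, exact binomial 95% interval 0.653 to 0.939) against 0.238%, 0.165% and 0.233% in OE-MLKL 1, 2 and 3, a mean of 0.212% ± 0.0409 (SD, n = 3). The OE-Vector library lay above all 3 OE-MLKL libraries (exact two-sided permutation p = 0.25, the smallest this design allows). Under 5% mitochondrial UMIs the difference of the means shrank from -0.575 to -0.247 percentage points. With at least 5 UMIs of the B cell genes it was -0.610. B cells at exactly 3 UMIs of these genes were 5 of 121 in OE-Vector 1 against 16 of 44 and 11 of 38 in OE-MLKL 1 and 2. The shares of those 2 OE-MLKL libraries thus depend more on the gate. Plasma cells made up 0.0910% of cells in OE-Vector 1 (interval 0.0498 to 0.153) against 0.0704%, 0.0780% and 0.0397% in OE-MLKL 1, 2 and 3. Here too OE-Vector 1 lay above all 3 OE-MLKL libraries, whose mean was 0.0627% ± 0.0203 (SD, n = 3), but the intervals overlapped (exact permutation p = 0.5, where the smallest possible is 0.25).

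The size of the B cell difference depended on the denominator. Over cells with a Ptprc UMI, members with such a UMI made up 1.19% in OE-Vector 1 against 0.390%, 0.319% and 0.334% in OE-MLKL 1, 2 and 3. These were 115 of 135 members in OE-Vector 1 against 19 of 57, 24 of 56 and 41 of 48 in OE-MLKL. A Ptprc UMI was thus found in a smaller part of the members of OE-MLKL 1 and 2, which lowers their shares by this measure. Over T and B lineage cells, members made up 13.1% in OE-Vector 1 against 10.3%, 10.1% and 6.30% in OE-MLKL, a mean of 8.91% ± 2.26 (SD, n = 3, exact permutation p = 0.5). T cells numbered 896 in OE-Vector 1 against 494, 500 and 714 in OE-MLKL 1, 2 and 3. The share of members that were plasma cells was 10.4% in OE-Vector 1 (14 of 135) against 22.8%, 32.1% and 14.6% in OE-MLKL 1, 2 and 3. The mean of 23.2% ± 8.79 (SD, n = 3) lay above OE-Vector with an exact permutation p = 0.5. Each OE-MLKL value was above OE-Vector, but the interval of OE-MLKL 3 (6.07 to 27.8) held the OE-Vector value.

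**Figure D1:**
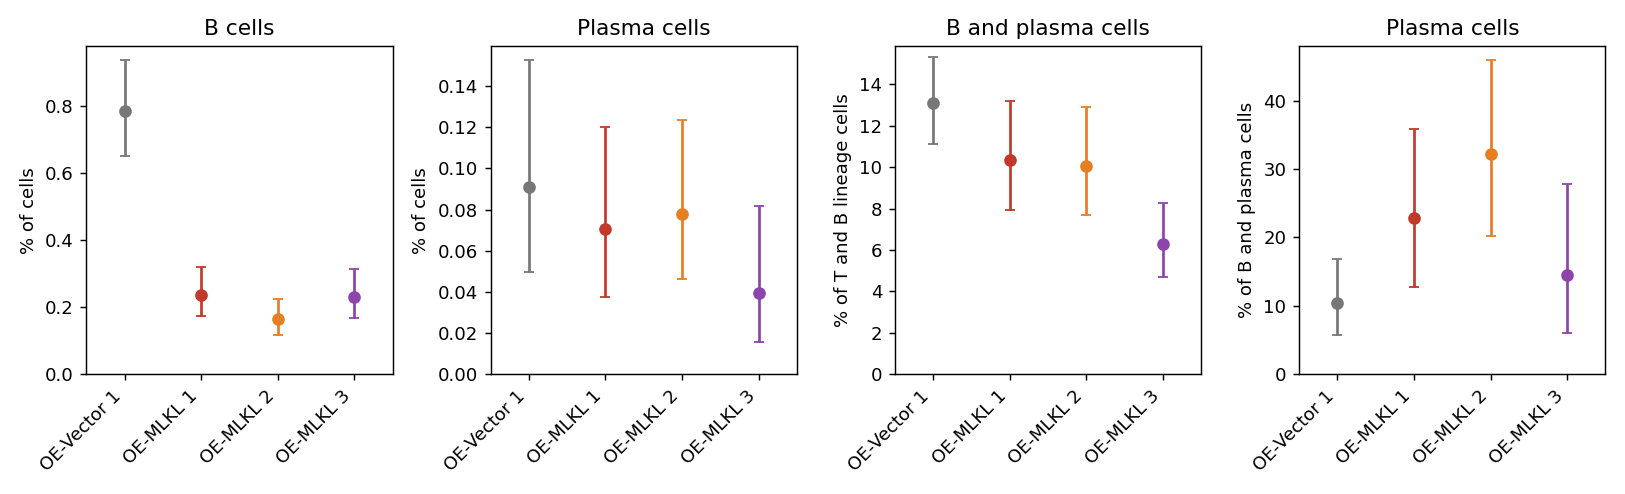
Share of B cells and of plasma cells among all cells (left panels), of both among T and B lineage cells, and of plasma cells among B and plasma cells (right), in percent, with 1 point per library and exact binomial 95% intervals. The OE-Vector 1 point for B cells (0.787%) lies above the 3 OE-MLKL points, whereas the plasma cell intervals overlap.

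Most B cells carried the IgM and IgD transcripts of unswitched cells. Ighm, the IgM heavy chain, was found in 220 of 244 B cells, at 3848, 1926, 3207 and 3642 CPM in OE-Vector 1 and OE-MLKL 1, 2 and 3. Ighd, the IgD heavy chain, was found in 149 of 244 B cells, at 462, 528, 702 and 708 CPM, and in no plasma cell. OE-MLKL 1 was the lowest for Ighm and OE-Vector 1 for Ighd. Igkc, the kappa light chain, was found in 219 B cells, and its level of 10936, 88983, 3796 and 22251 CPM was set by few cells. The richest single B cell held 35.7% of the Igkc UMIs of its kind in OE-Vector 1, and in OE-MLKL 1, 2 and 3 it held 37.4%, 9.5% and 78.2%.

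A single heavy chain UMI did not mark a B cell, because T cells carried Ighm too. In T cells an Ighm UMI was present in 39.6%, 9.92%, 13.4% and 32.9% of cells in OE-Vector 1 and OE-MLKL 1, 2 and 3. The median T cell held 3701, 3693, 3127 and 3239 UMIs. Ighm stood at 138, 26.2, 42.9 and 124 CPM in T cells and at 50.3, 13.9, 9.73 and 75.2 in the barcodes of free RNA, whereas Igkc stood at 61.4, 36.2, 28.4 and 47.1 in T cells and at 502, 413, 247 and 332 in those barcodes. T cells thus held more Ighm than free RNA and less Igkc, and the source of their Ighm was not tested. Ighd separated the kinds better. It was present in 64.5%, 47.7%, 55.3% and 70.7% of B cells and in 0.781%, 0 of 494, 0.400% and 2.24% of T cells, where 0 of 494 allows a share of up to 0.607% by 3 counts (exact upper limit 0.744%). At least 3 light chain UMIs were found in 99.2%, 68.2%, 92.1% and 92.7% of B cells and in 1.23%, 0.607%, 0.2% and 0.980% of T cells.

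**Figure D2:**
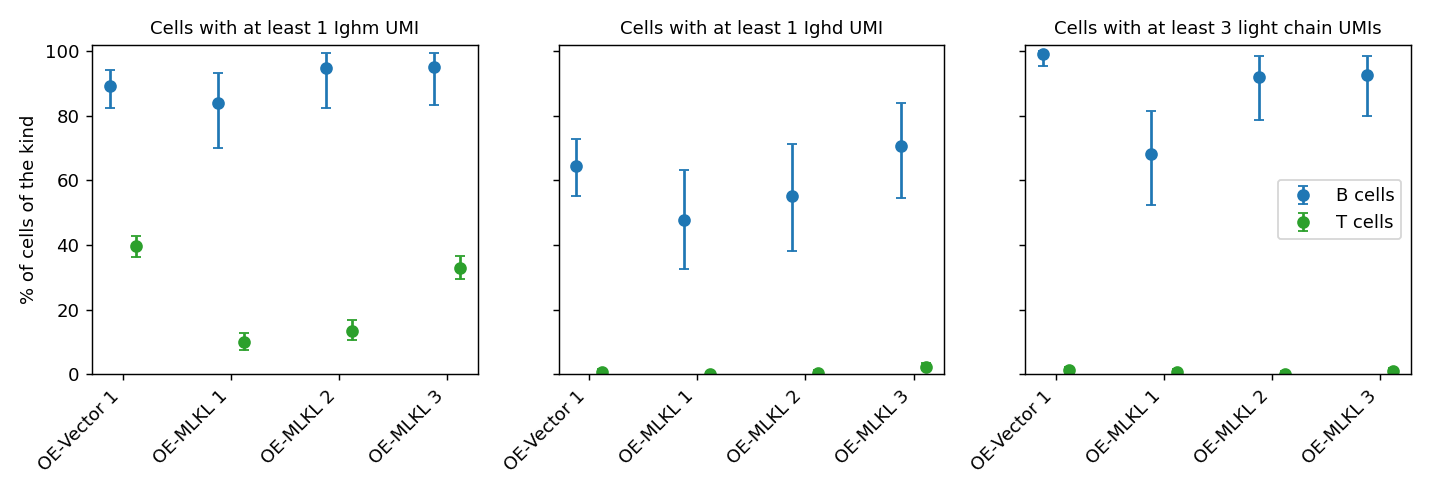
Percent of B cells (blue) and T cells (green) of each library with at least 1 Ighm UMI, at least 1 Ighd UMI and at least 3 light chain UMIs, with exact binomial 95% intervals. T cells reach 39.6% for Ighm but at most 2.24% for Ighd and 1.23% for light chains.

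Among B cells with at least 2 heavy chain UMIs, 20 of 232 were led by a switched class. They were 14 of 120 in OE-Vector 1 (11.7%) against 4 of 39, 0 of 32 and 2 of 41 in OE-MLKL 1, 2 and 3, a mean of 5.04% ± 5.13 (SD, n = 3, exact permutation p = 0.5). Among T cells with at least 2 heavy chain UMIs the same measure gave 9.50%, 18.2%, 15.4% and 2.80%, of 200, 11, 26 and 107 cells, so the B cell shares did not stand above those of T cells in every library. A stricter count of at least 10 switched UMIs was met by 14 of 244 B cells and by 0 of 2604 T cells. These cells were 10 of 121, 3 of 44, 0 of 38 and 1 of 41, and 0 of 38 allows a share of up to 7.89% by 3 counts (exact upper limit 9.25%). The 3 in OE-MLKL 1 held 25.6% to 60.8% immunoglobulin UMIs and the 1 in OE-MLKL 3 held 34.6%. Of the 10 in OE-Vector 1, only 1 held at least 10% (21.6%). By light chain, 83.6% of 275 members with at least 3 light chain UMIs were kappa cells. The kappa share was 85.1% in OE-Vector 1 and 82.1% ± 2.92 in OE-MLKL (SD, n = 3, exact permutation p = 0.5).

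Plasma cells were mostly IgA cells. The leading heavy chain gene was Igha, the IgA constant region (chr12:113254830-113260236, minus strand, mm10), in 41 of 52 cells, an IgG gene in 7 and Ighm in 4. Igha led 11 of 14 plasma cells in OE-Vector 1 against 11 of 13, 16 of 18 and 3 of 7 in OE-MLKL 1, 2 and 3. OE-MLKL 3, with the fewest plasma cells, also held 2 IgM and 2 Ighg1 cells. The IgG cells were led by Ighg1 in 4, Ighg2b in 2 and Ighg2c in 1, genes of near-identical sequence among which single UMIs may be misassigned.

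Most plasma cells were led by 1 class and 1 light chain. The leading class made up at least 95% of heavy chain UMIs in 48 of 52 cells, and the leading light chain type at least 95% in 49. The lowest shares were 61.2% for the leading class and 74.0% for the leading light chain, in separate cells of OE-MLKL 1. Kappa was the light chain of 51 cells. The single lambda cell, in OE-MLKL 1, was an IgA cell and held 4678 of the 4782 Iglc1 UMIs of the plasma cells of that library. Immunoglobulin transcripts took between 8.20% and 74.9% of a plasma cell's UMIs, with medians of 30.9%, 50.1%, 50.7% and 34.5% in OE-Vector 1 and OE-MLKL 1, 2 and 3.

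The Jchain gate bears on these classes. The median Jchain share was 3.09% of UMIs in IgA plasma cells, 1.58% in IgM cells and 1.39% in IgG cells. Below the gate, 6 further cells counted as B cells held 21.6% to 60.8% immunoglobulin UMIs, with Jchain between 0.210% and 0.971%. Of these, 3 were led by Ighg2b, 2 by Ighg2c and 1 by Ighm, and none by Igha. With them, Igha led 41 of 58 antibody-rich cells (70.7%) in place of 78.8% of the plasma cells.

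**Figure D3:**
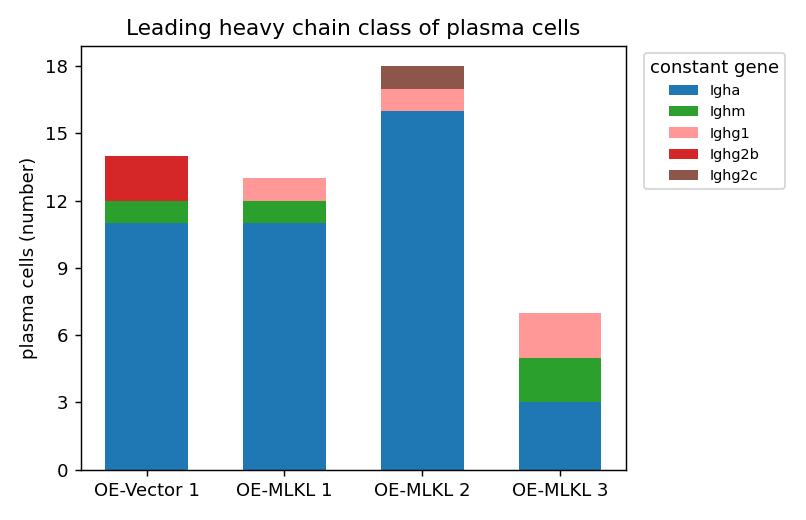
Number of plasma cells in each library by the heavy chain constant gene with the most UMIs in the cell. Igha leads 11, 11, 16 and 3 cells in OE-Vector 1 and OE-MLKL 1, 2 and 3.

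The variable regions of the plasma cells were diverse. A heavy chain V gene was found in 49 of 52 plasma cells, with 28 different leading V genes among them. Leading pairs were taken with the V gene Iglv1 left aside and at least 2 UMIs of each V gene. Ighv1-81 with Igkv1-117 then led 3 plasma cells, 1 in OE-MLKL 1 and 2 in OE-MLKL 2. Ighv1-9 with Igkv8-30 led 1 plasma cell in OE-MLKL 3 and 1 antibody-rich B cell in OE-Vector 1, both of them IgM cells. Iglv1, a lambda V gene (chr16:19085017-19085500, minus strand), was found in 48 of 52 plasma cells although 51 were kappa cells. Its level was 1461, 1723, 2126 and 1466 CPM in plasma cells, 14.7, 172, 19 and 249 in B cells and at most 0.482 in T cells. In 16 kappa cells Iglv1 had at least 5 UMIs while Iglc1 had at most 5. In 15 of 52 plasma cells Iglv1 had more UMIs than any other light chain V gene. Lambda V genes include near-identical copies, among which the assignment of reads is uncertain.

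Against B cells of the same library, 273 of 1708 genes tested were higher in plasma cells (16.0%) and 268 were lower (15.7%), by edgeR's quasi-likelihood test on UMI sums with the library as a term and an adjusted p under 0.05. The genes of the rule were left out of these counts. With library size alone in place of TMM scaling, the median log2 difference of all genes moved from -0.13 to -1.15 and the split became 130 higher and 1020 lower, so the differences below are relative to the median gene. The 541 genes called became 295 without OE-Vector 1 and 337 without OE-MLKL 3. Jchain chose the plasma cells, and a gene whose level goes with Jchain from cell to cell was in part set by that choice.

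The regulators of the plasma cell state were higher. All 18 tested genes of a 20-gene plasma cell list were higher, with a median log2 difference of 3.5 against -0.13 over all genes. Prdm1, which represses the B cell programme (chr10:44437177-44528501, minus strand), stood at 152, 57.4, 54.5 and 276 CPM in plasma cells and at 2.44, 26.4, 0 and 0 in B cells. The measured values of the kinds did not overlap, although 0 in the B cells of OE-MLKL 2 allows up to 56.9 CPM at 3 counts, above the 54.5 of its plasma cells. The log2 difference was 5.31 ± 0.73 (SE, edgeR adjusted p = 0.00042). Xbp1, which drives the secretory machinery, stood at 1678, 1252, 1181 and 1725 in plasma cells and at 83.1, 475, 19 and 139.7 in B cells, a log2 difference of 4.21 ± 0.51 (adjusted p = 0.00023). The high B cell value of OE-MLKL 1 came with 1 cell that held 23 of its 36 Xbp1 UMIs. Irf4, a further regulator, was higher by 2.50 ± 0.30 (adjusted p = 0.00023) and Pou2af1, a coactivator of immunoglobulin genes, by 1.40 ± 0.24 (adjusted p = 0.0013).

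Transcripts of plasma cell surface proteins were found in a part of the cells. Sdc1, the usual surface marker CD138, was found in 27 of 52 plasma cells and was higher by 2.89 ± 0.53 on the log2 scale (adjusted p = 0.0020). Tnfrsf17, the APRIL and BAFF receptor BCMA, was found in 25 plasma cells and 1 B cell, at 76.0, 46.0, 109 and 51.8 CPM in plasma cells, and was too low to be tested. Tnfrsf13c, the BAFF receptor of B cells, went the other way, at 17.5, 23.0, 9.09 and 34.5 in plasma cells and 244, 106, 323 and 119.7 in B cells, a log2 difference of -2.52 ± 0.51 (adjusted p = 0.0034). Cd28, better known as the costimulatory receptor of T cells, was found in 25 plasma cells at 129, 138, 90.9 and 189.8 CPM and in 2 B cells. It was higher by 4.82 ± 0.78 (adjusted p = 0.0010), beside the other T cell genes Il7r with 10 UMIs, Cd8b1 with 2 and Lck with 1 in OE-Vector 1, and Cd8b1 and Thy1 with 1 each in OE-MLKL 1. The other 7 genes of that list had no UMI in plasma cells, with the 3 Cd3 genes at 0 by the rule.

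Transcripts for proteins of the endoplasmic reticulum (ER) were higher as a group. Of 12 genes of the unfolded protein response, 9 of the 10 tested were higher and none lower, with a median log2 difference of 2.31. Hsp90b1, an ER chaperone, stood at 3998, 1666, 3235 and 7487 CPM in plasma cells and at 679.7, 1675, 209 and 519 in B cells. OE-MLKL 1 was level and the other 3 libraries were higher, and the log2 difference was 3.44 ± 0.60 (adjusted p = 0.0015). The B cells of OE-MLKL 1 take in 3 antibody-rich cells of 10970, 6500 and 8932 UMIs, out of 75801 UMIs in its B cells. Their part in the B cell levels of that library was not tested. Hspa5, the chaperone BiP, gave 2.34 ± 0.59 (adjusted p = 0.011) and Dnajc3, its co-chaperone, 3.28 ± 0.36 (adjusted p = 0.00016). Derl3 and Edem1, which act in the disposal of misfolded ER proteins, were higher by 3.45 ± 0.51 (adjusted p = 0.00067) and 4.37 ± 0.54 (adjusted p = 0.00025). Edem1 was found in all 52 plasma cells, at 824, 1034, 827 and 1087 CPM, against 51.3, 369, 19 and 19.96 in B cells. Sec11c, a subunit of the signal peptidase, and Ssr4, of the translocon, were also found in all 52 cells and were higher by 3.48 ± 0.41 and 3.38 ± 0.38 (adjusted p = 0.00022 and 0.00018).

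**Figure D4:**
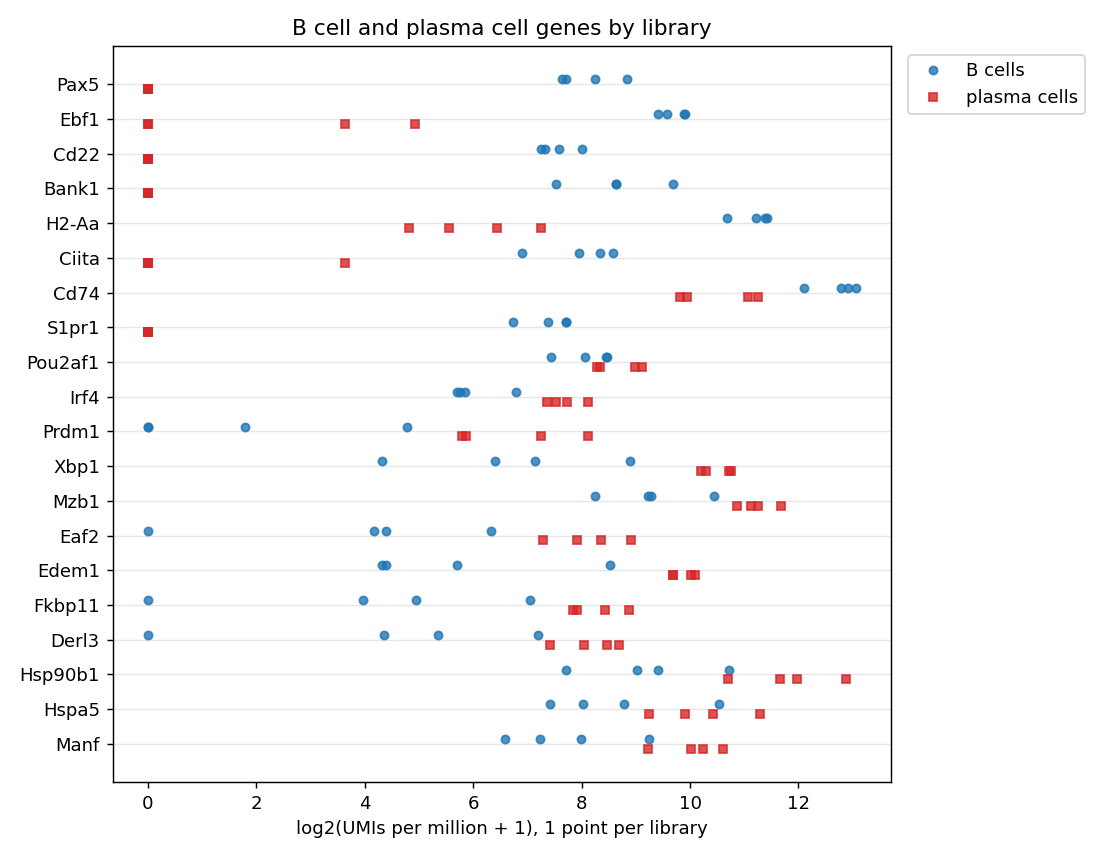
Level of B cell genes (upper rows) and plasma cell genes (lower rows) as log2(CPM + 1), with 1 blue point per library for B cells and 1 red square for plasma cells. Pax5, Cd22, Bank1 and S1pr1 are at 0 in the plasma cells of all 4 libraries, and for Hsp90b1 and Hspa5 the B cells of OE-MLKL 1 lie above the plasma cells of that library. These B cells take in 3 antibody-rich cells.

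The ER stress element is the sequence by which the unfolded protein response is known to act on its targets, so the promoters of these genes were searched for it. The motif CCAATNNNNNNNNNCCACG was searched on both strands of RefSeq promoters (GRCm38.p6, 250 bases before to 50 after the start site) and occurred in 39 of 32851 promoters (0.119%). It occurred in 7 of 26 genes of the plasma cell and unfolded protein response lists with a promoter (26.9%), in 8 of 208 genes called higher (3.85%) and in 0 of 208 called lower. Over all 1341 tested genes with a promoter, 9 held it (0.671%). The 7 listed genes are also among the 8 called higher. The lists were made of known genes of this response and of plasma cells, so a high share among them tests nothing. The share of 0.119% counts promoters, whereas the others count genes with any matching promoter. The matches below show its 2 conserved blocks in capitals, read along the gene, with CCAAT and CCACG forward, or CGTGG and ATTGG in reverse. They are shown for 6 of the 7 listed genes and the seventh was Calr. A match is a description of the letters and not a bound site.
Derl3, chr10:75893237-75893266, plus strand: tctacCGTGGgacttccccATTGGctagcc
Creld2, chr15:88819515-88819544, plus strand: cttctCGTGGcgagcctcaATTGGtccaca
Hsp90b1, chr10:86705632-86705661, minus strand: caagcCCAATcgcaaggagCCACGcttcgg
Hsp90b1, chr10:86705527-86705556, minus strand: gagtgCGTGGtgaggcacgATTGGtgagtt
Hspa5, chr2:34772020-34772049, plus strand: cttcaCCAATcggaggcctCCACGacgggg
Dnajc3, chr14:118937822-118937851, plus strand: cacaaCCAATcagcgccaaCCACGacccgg
Pdia6, chr12:17266486-17266515, plus strand: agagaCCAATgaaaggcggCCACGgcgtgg

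**Figure D5:**
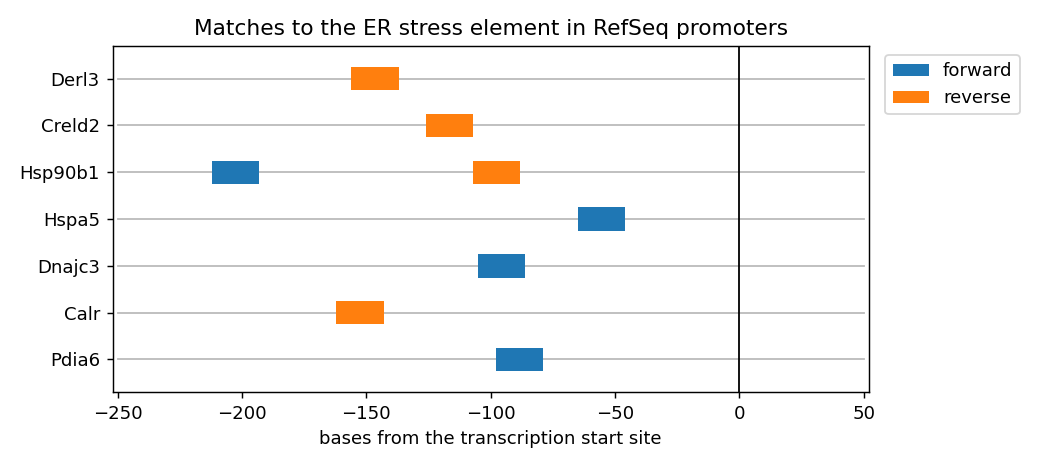
Position of each match to the ER stress element in bases from the transcription start site, with blue for the forward and orange for the reverse reading and grey lines for the searched stretch. The matches begin between 65 bases (Hspa5) and 212 bases (Hsp90b1) before the start site, and Hsp90b1 has 2.

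The B cell programme was low or at 0 in plasma cells. Of 14 B cell identity genes, 9 of 13 tested were lower and none higher, with a median log2 difference of -5.14, or -3.83 with genes at 0 set to a floor of 3 counts. Pax5, the B cell commitment factor (chr4:44524757-44710487, minus strand), stood at 303, 198, 209 and 459 CPM in B cells and at 0 in plasma cells, at least 23.9-fold lower against the floor of 3 counts over the group (adjusted p = 0.00042). Bank1, a scaffold of antigen receptor signalling, was at least 34.0-fold lower and Cd22, an inhibitory receptor, at least 17.5-fold lower (adjusted p = 0.00023 and 0.0011). Bcl11a, a transcription factor of early lymphoid cells, and Bin1, a membrane-bending protein, were at least 24.1-fold and 14.7-fold lower (adjusted p = 0.00067 and 0.0019). Ebf1, another factor of B cell identity, fell by 5.14 ± 0.48 on the log2 scale (adjusted p = 9.6e-05). Vpreb3 and Ly6d did not pass the test, with log2 differences of -0.69 ± 0.33 and -0.66 ± 0.44.

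Genes of follicular and naive cells followed, with 10 of 11 tested lower. Ighd was at least 41.0-fold lower (adjusted p = 0.00016). S1pr1, the receptor for exit from lymphoid tissue, was at least 13.2-fold lower (adjusted p = 0.0015). Btg1, a growth inhibitor, fell by 3.41 ± 0.33 (adjusted p = 0.00012).

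Transcripts of MHC class II genes were mostly lower in plasma cells by the same comparison. Of 11 MHC class II genes, 9 of 10 tested were lower and none higher, with a median log2 difference of -3.03. H2-Aa, a class II chain, stood at 2386, 1636, 2657 and 2734 CPM in B cells and at 152, 46.0, 27.3 and 86.3 in plasma cells, a log2 difference of -4.09 ± 0.31 (adjusted p = 3.9e-05). Cd74, the invariant chain, fell less, by 1.33 ± 0.20 (adjusted p = 0.00070). Ciita, the master regulator of class II genes, had 1 UMI in plasma cells and 192 in B cells. Ctss, a protease of the same pathway, did not pass the test (0.05 ± 0.27, adjusted p = 0.90).

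In antigen receptor signalling 7 of 11 tested genes were lower and Cd81 was higher (1.05 ± 0.30, adjusted p = 0.023). Syk, the kinase next to the receptor, fell by 1.24 ± 0.30 (adjusted p = 0.0096), whereas Blnk and Plcg2, its partners, gave -0.29 ± 0.31 and -0.10 ± 0.41 and did not pass. Among the other genes of largest difference, Igha rose by 10.67 ± 0.69, Igkc by 4.85 ± 0.73 and Iglv1 by 5.12 ± 0.63 (adjusted p = 1.8e-05, 0.00068 and 0.00026). Igkv8-30, a kappa V gene, rose by 5.05 ± 0.55 (adjusted p = 0.00015) from 5 plasma cells. Prg2, a granule protein known from eosinophils, was found in 20 plasma cells at 111, 138, 100 and 104 CPM and in 1 B cell (5.43 ± 0.76, adjusted p = 0.00048). Slpi, a secreted protease inhibitor, differed by 5.36 ± 0.42 (adjusted p = 3.9e-05), but single cells held 356 of 397 Slpi UMIs in OE-MLKL 1 and 231 of 246 in OE-MLKL 2.

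UMIs of proliferation genes were found in both kinds. Mki67, a marker of cycling cells, stood at 309.8, 91.9, 54.5 and 828 CPM in plasma cells and 149, 39.6, 266 and 79.8 in B cells. The log2 difference was 1.84 ± 0.58 (adjusted p = 0.033), but 1 plasma cell held 40 of 53 Mki67 UMIs in OE-Vector 1 and another 34 of 48 in OE-MLKL 3. With plasma cells taken at 2% Jchain the difference turned to -0.49. A UMI of Mki67 or Top2a was found in 71.4% of plasma cells in OE-Vector 1 and 39.3% ± 17.5 in OE-MLKL (SD, n = 3, exact permutation p = 0.5). It was found in 15.7% of B cells in OE-Vector 1 and 13.03% ± 9.85 in OE-MLKL (SD, n = 3, exact permutation p = 1). In T cells it was found in 37.6%, 36.6%, 43.6% and 42.7% of cells in OE-Vector 1 and OE-MLKL 1, 2 and 3. Free RNA was not set beside these shares, and the source of single UMIs was not tested. Median depths differed between the kinds as given above, and these shares were not thinned to 1 depth.

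Against T cells, 618 of 10295 genes tested were higher in B cells (6.00%) and 888 were lower (8.63%), 1506 in all and 937 without OE-MLKL 3. On the same genes the split turned to 1028 higher and 695 lower with limma-voom and to 497 and 414 with DESeq2. All 14 B cell identity genes were higher, with a median log2 difference of 8.93 against -0.15 over all genes. By their gate the T cells held no UMI of Cd79a, Cd79b or Ms4a1, which in part sets such differences. Vpreb3, a protein bound to nascent immunoglobulin chains, stood at 469, 343, 418 and 159.6 CPM in B cells and at 0 in T cells, at least 1620-fold higher against 3 counts over the group (adjusted p = 9.5e-107). Of all RefSeq promoters 1.74% held the octamer ATTTGCAT on either strand, the letters that Oct factors are known to read, and among 10 identity genes with a promoter Vpreb3 was the only one with it, shown here in capitals.
Vpreb3, chr10:75948244-75948273, plus strand: tcagtgggctgATTTGCATgctctattgtg

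All 11 MHC class II genes were higher in B cells than in T cells, with a median log2 difference of 4.77, and 12 of 14 receptor signalling genes were higher. Prkcb, a kinase of the path to NF-kB, rose by 1.80 ± 0.30 (adjusted p = 6.0e-08). Of 14 cell cycle genes 10 were lower and none higher, such as Top2a at 196, 26.4, 189.8 and 119.7 CPM against 373, 297, 396 and 432 (-1.57 ± 0.28, adjusted p = 5.7e-07). Il10, an inhibitory cytokine, had 1 UMI in 244 B cells, 5 in 52 plasma cells and 283 in T cells. Il6 had none in B cells or plasma cells. Apoe, a macrophage-rich gene also common in free RNA, was higher in B cells (1.55 ± 0.22, adjusted p = 7.1e-11), the only one of 10 macrophage genes to be so.

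Against dendritic cells, the other professional antigen-presenting cells, 649 of 4612 genes tested were higher in B cells (14.1%) and 753 were lower (16.3%), 1402 in all, 808 without OE-Vector 1 and 873 without OE-MLKL 3. The split turned to 858 higher and 760 lower with limma-voom and to 706 and 687 with library size alone. The genes called lower include Flt3, Xcr1 and Clec9a, by which the dendritic cells were chosen. These cells also held no UMI of Cd79a, Cd79b or Ms4a1 by their gate, so such differences were in part set by it. MHC class II genes went both ways, with 7 lower and 3 higher. Lower were the classical chains H2-Aa, H2-Ab1 and H2-Eb1, the invariant chain Cd74, the protease Ctss and both H2-DMa and H2-DMb1 of the loading factor H2-DM. H2-Aa stood at -1.44 ± 0.17, Cd74 at -1.01 ± 0.16 and H2-DMb1 at -3.00 ± 0.29 (adjusted p = 3.2e-07, 1.3e-05 and 5.7e-09), H2-DMa at -1.53 ± 0.24 and Ctss at -0.99 ± 0.24 (adjusted p = 1.3e-05 and 0.0025). H2-Oa and H2-Ob, the chains that restrain peptide loading, were higher by 0.79 ± 0.28 and 1.64 ± 0.25 (adjusted p = 0.037 and 1.2e-05), as was H2-DMb2, another chain of H2-DM (0.86 ± 0.27, adjusted p = 0.018). H2-Ob stood at 447, 185, 455 and 269 CPM in B cells. Pou2af1 and Iglc1 were at 0 in dendritic cells, at least 288-fold and 577-fold higher in B cells (adjusted p = 2.8e-12 and 4.3e-14).

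The B cells held genes of several subsets. Fcer2a, the IgE receptor CD23 of follicular cells, was found in 54 B cells and Cr2, the complement receptor CD21, in 50. A single B cell barcode of OE-Vector 1 held 46 of the 121 Cr2 UMIs. These 2 counts of cells were not set against free RNA. Cd5, a marker of B1a cells, was at 0 in all 244 B cells and at 78.1 to 162 CPM in T cells. Other genes of the marginal zone and B1 list were present. Bhlhe41, a regulator of B1 cells, was found in 13 B cells at 14.7, 39.6, 0 and 99.8 CPM and was higher than in T cells (3.48 ± 0.65, adjusted p = 2.1e-06), while the barcodes of free RNA held 23.4 to 34.0 CPM. Spn, which encodes CD43, had 17 UMIs in 10 B cells and was lower than in T cells (-2.57 ± 0.37, adjusted p = 2.9e-10). Of the 12 genes on this list 11 were tested against T cells, with Cr2, Bhlhe41 and Mzb1 higher and Spn and Cd5 lower. In the B cells of the 4 libraries together the precursor genes Rag1 and Vpreb1 had 1 UMI each and Rag2, Igll1 and Dntt none.

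Some germinal centre transcripts were seen mainly in OE-Vector 1. Mef2b, a transcription factor of germinal centre B cells, had 23 UMIs in 6 B cells there (56.2 CPM) and none in the B cells of OE-MLKL, where 3 counts stand for 29.9 to 56.9. Rgs13, a regulator of chemokine signalling in these cells, had 9 UMIs in 4 B cells there and also none in OE-MLKL. With 38 to 44 B cells in each OE-MLKL library a lower level of these genes was not detectable. The deepest member was 1 barcode of OE-Vector 1 with 54832 UMIs.

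Between the groups, 4 of 2191 genes tested were higher in B cells labelled OE-MLKL (0.183%) and 5 were lower (0.228%), with 93 genes at an unadjusted p under 0.05. This fit had 2 residual degrees of freedom, and it took the spread of the single OE-Vector library to equal that among the OE-MLKL tumours. With library size alone the split was 10 higher and 5 lower. Without OE-MLKL 3 no gene was called by edgeR (55 at an unadjusted p under 0.05), and without OE-MLKL 1 or OE-MLKL 2 there were 14. With all libraries limma-voom called none (191 at an unadjusted p under 0.05) and DESeq2 3.

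The 5 lower genes rested in part on that deepest barcode. Cxcl13, a chemokine that draws B cells (chr5:95956951-95961068, plus strand), had 211 UMIs in OE-Vector 1 and 0 in OE-MLKL, at least 38.6-fold lower (adjusted p = 1.1e-08), and all 211 lay in this barcode. It also held 284 of 291 UMIs of Clu, a secreted chaperone, and 354 of 357 of Mfge8, a bridge to dying cells, whose log2 differences were -6.20 ± 0.75 and -5.23 ± 0.65 (adjusted p = 1.1e-08 and 1.7e-08). These 3 genes are known from follicular dendritic cells. The barcode held 46 UMIs of Cr2, 61 of Cd79a and 66 of Ms4a1, and it was not among the barcodes that the doublet caller removed. Of Basp1, a membrane protein, it held 46 of 135 UMIs and of Pclaf, a replication factor, 55 of 147 (-2.85 ± 0.65 and -2.49 ± 0.58, adjusted p = 0.018 and 0.019). Without the 2 B cells over 20000 UMIs, both in OE-Vector 1, 10 genes were higher and 2 lower. The 4 higher genes kept their call and none of the 5 lower ones did, so those 2 were different genes. Basp1 then stood at -2.38 and Pclaf at -1.65 on the log2 scale, neither past the test (adjusted p = 0.13 and 1.0).

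The 4 higher genes were also uneven. Ly6c2, a surface antigen of activated lymphoid and myeloid cells, stood at 12.2 CPM in OE-Vector 1 against 620.0, 38.0 and 39.9 in OE-MLKL 1, 2 and 3 (4.38 ± 1.0, adjusted p = 0.018), and 1 cell held 29 of 47 UMIs in OE-MLKL 1. Prap1, a secreted epithelial protein, stood at 24.4 and 39.6, 94.9 and 649 (3.41 ± 0.84, adjusted p = 0.033), and 1 cell held 45 of 65 UMIs in OE-MLKL 3, where T cells also had the most, 157 CPM. Gm15472, a predicted gene, stood at 14.7 and 92.3, 152 and 249 (3.46 ± 0.84, adjusted p = 0.033) with no more than 4 UMIs in any cell. Ighg2c had no UMI in OE-Vector 1 or OE-MLKL 2, and single cells held 929 of 929 UMIs in OE-MLKL 1 and 639 of 646 in OE-MLKL 3 (at least 957.8-fold higher). Both of these are antibody-rich cells below the Jchain gate, with 25.6% and 34.6% immunoglobulin UMIs. The Ighg2c difference thus rests on them and not on the B cells at large.

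No other listed gene passed the test between the groups. Of 14 B cell identity genes none was called, with a median log2 difference of -0.32 against 0.08 over all genes, and of 10 tested MHC class II genes none, with a median of -0.23. Of 15 interferon response genes 4 were tested and none called, all below 0 with a median of -1.07. Ifi27l2a, an interferon-induced gene, stood at 631 CPM in OE-Vector 1 against 158, 171 and 169.6 in OE-MLKL (-1.87 ± 0.53, adjusted p = 0.11), and T cells showed 506 and 67.6, 119 and 131. All 11 tested plasma cell genes lay above 0 with a median of 1.5 and none was called. The 20 genes of that list summed to 0.241% of B cell UMIs in OE-Vector 1 and to 0.708%, 0.112% and 0.278% in OE-MLKL 1, 2 and 3, so OE-MLKL 2 lay below OE-Vector and OE-MLKL 1 was the highest. Cells with at least 10% immunoglobulin UMIs made up 2 of 121 B cells in OE-Vector 1 against 3 of 44, 0 of 38 and 1 of 41 in OE-MLKL.

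Signals to B cells were summed over the cells of a library that were neither B cells nor plasma cells. Tnfsf13b, which encodes BAFF, stood at 6.51 CPM in OE-Vector 1 against 4.24, 3.74 and 13.5 in OE-MLKL, and the groups overlapped. Tnfsf13, which encodes APRIL, stood at 17.7 and 9.93, 11.1 and 15.1. Cd40lg, the T cell help signal, stood at 1.13 and 0.0891, 0.175 and 0.208, and Il4, a class-switching cytokine, at 0.929 and 0.0137, 0.0519 and 0.129. For these last 3 genes OE-Vector lay above the OE-MLKL range (exact permutation p = 0.25 each, the smallest possible, as also for Il6, among 10 ligands compared). Cxcl13 gave 0.449 and 16.5, 0.908 and 3.84 in these cells. With the B cells and plasma cells included it gave 2.05 and 16.5, 0.907 and 3.83, since 211 of its UMIs in OE-Vector 1 lay in 1 B cell barcode. Fewer cells of a type and less RNA per cell cannot be told apart in such sums.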

How the data were processed

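Members, gene lists and comparisons were chosen with earlier results of these data known. The deposited files hold UMI counts per gene and barcode (unit counts, not normalized) for 32285 genes. The authors made them with Cell Ranger, for which the submitters' processing notes give version 2.1.1 with the build mm10, the file headers give 7.1.0, and the methods give another version, so the version is not settled. Whether intronic reads were counted is not given in the sources used here, and unfiltered barcodes were deposited. Total UMIs per library were 150591289, 162204859, 169978362 and 169932886 in OE-Vector 1 and OE-MLKL 1, 2 and 3.

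UMI counts were summed per library and cell kind and tested with edgeR 4.0.16 (R 4.3.3) by the quasi-likelihood test, with TMM scaling, filterByExpr and Benjamini-Hochberg adjustment at 0.05 over all genes tested. T cells held at least 3 UMIs of Cd3d, Cd3e and Cd3g and dendritic cells at least 2 of Flt3, Xcr1, Clec9a and Cd209a. Both kinds met the limits of the rule on macrophage, neutrophil and keratin genes. Both also held no UMI of Cd79a, Cd79b or Ms4a1 and Jchain under 1%, and dendritic cells no UMI of the Cd3 genes. Levels are CPM of the summed cells, with 1000000 as the scale. Shares were compared by exact two-sided permutation tests over libraries. Doublets were not removed in the main results, and removal by simulated neighbours, which took 14 of 296 members, was an alternative. Named genes are those of the gene lists, plus, in each comparison, the 8 called genes with the largest and the 8 with the lowest log2 difference with at least 20 UMIs and 1 direction in every library (for the groups, OE-Vector outside the OE-MLKL range), and the V genes that most often led a cell. DESeq2 1.42.0, limma 3.58.1, other gates, filters and scalings were alternatives. On simulated data with known changes, 8-fold differences were recovered in 73.4% (groups, 2085 genes), 80.9% (plasma over B cells, 1764 genes), 77.5% (over T cells, 10065 genes) and 81.5% (over dendritic cells, 4451 genes) of cases, and 2-fold differences in 6.56% to 13.8%, with 5, 3, 3 and 7 false calls in these comparisons. The simulation changed only genes above a minimum UMI sum and drew all counts with 1 dispersion and no outlying single cells. Its rates need not hold for lower genes or for calls that rest on 1 cell. The replicates are separate tumours per the methods. Some listed genes are not reported here.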

Additional observations from a re-analysis of the deposited data

How the results depend on the processing

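No paired analysis was possible because only 1 OE-Vector library had a count matrix, so the groups share fewer than 2 replicate numbers. The 6 share differences (OE-MLKL mean less OE-Vector) had the same sign under all alternatives run, including leaving out each OE-MLKL library, but their size moved. Under 5% mitochondrial UMIs they went from -0.603 to -0.277 percentage points for B and plasma cells, from -0.575 to -0.247 for B cells, from -6.62 to -1.20 for switched B cells and from -3.01 to -0.13 for kappa. The plasma cell share of members went from 12.8 to between 8.32 (without OE-MLKL 2) and 29.2 (at least 5 UMIs of the B cell genes), and plasma cells among all cells from -0.0283 to -0.0153 without members over 20000 UMIs and -0.0168 without OE-MLKL 3. The 9 genes called between the groups became 25 with doublets removed, 15 with at least 5 UMIs of the B cell genes, 26 with these genes at 0.1% of UMIs, 23 without cells of at least 10% immunoglobulin UMIs, 15 with library size alone, 21 without the filter on low counts, 20 without immunoglobulin genes, 3 with DESeq2 and 0 with limma-voom, and between 0 and 14 when 1 OE-MLKL library was left out. The 541 genes called between plasma and B cells became 193 under 5% mitochondrial UMIs, 296 with Jchain at 2%, 1150 with library size alone, 324 with no library term, and 295 (without OE-Vector 1) to 557 with 1 library left out. For B over T cells the 1506 became 587 under 5% mitochondrial UMIs, 911 with DESeq2, 975 with no library term, and 937 (without OE-MLKL 3) to 1394 with 1 library left out. For B over dendritic cells the 1402 became 711 under 5% mitochondrial UMIs, 786 with no library term, and 808 (without OE-Vector 1) to 1512. Of the named and listed genes between plasma and B cells, with Jchain at 2% the log2 difference of Mki67 turned to -0.49, of Ighg1 to -0.24 and of Iglc2 to -0.67, and with library size alone that of Tnfrsf13b turned to -0.16 and of Iglc3 to -0.37. Between B and T cells, Xbp1 turned to -0.19 with B cell genes at 0.1%, to -0.83 without antibody-rich cells and to -0.029 without OE-MLKL 1 (1.51 without OE-Vector 1), Myc to -0.48 under 5% mitochondrial UMIs, and Trp53inp1 to -0.014 and Creld2 to -0.35 without antibody-rich cells, as did Sec11c against dendritic cells (-0.22). The cause was not tested. The 2 settings that leave out antibody-rich cells and members over 20000 UMIs were chosen after seeing the data. Depth sets a limit of up to 56.9 CPM for B cells (OE-MLKL 2) and 51.8 for plasma cells (OE-MLKL 3) at 3 counts.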
